A study of Homo sapiens with 7 samples.

Results

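Aminoacyl-tRNA synthetases join each amino acid to its tRNA and so supply the charged tRNAs that ribosomes read. The set described here is a list of 35 human nuclear genes for these enzymes, 19 coding for cytosolic enzymes and 16 for mitochondrial ones, out of 20050 protein-coding genes in the RefSeq table. The list was set by gene name and not by a cut on any measured value, but it was chosen with earlier results of these data known. Peaks of N6-methyladenosine (m6A) were listed for 4 captured libraries of HEK-293T, an established line derived from human embryonic kidney, 2 made by m6A-ORL and 2 by MeRIP. In m6A-ORL, a chemical method, fragmented RNA was treated with NO/O2, TDO and the biotin-carrying probe BA, bound to streptavidin beads and released with DTT. In MeRIP, an antibody against m6A captured the fragments. All libraries came from the same line under the same culture conditions, so the contrast is between methods and not between biological states. Per the labels, m6A-ORL replicate 1 was made from total RNA and the other 3 libraries from polyA RNA, so RNA type and replicate cannot be told apart within m6A-ORL. The 3 input libraries were not analysed here.

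Most amino acids have a cytosolic and a mitochondrial enzyme, given by separate genes, most with symbols ending in 1 and 2. GARS1 and KARS1 code for both forms and were counted as cytosolic. Several cytosolic enzymes sit together in the multi-synthetase complex. The mitochondrial enzymes are imported and charge tRNAs encoded by mitochondrial DNA. m6A is written on mRNA mainly by the METTL3 and METTL14 methyltransferase at adenosines within a short consensus whose core is AAC or GAC, and is best known near stop codons and in long exons.

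The lists held 11022 and 7661 peaks by m6A-ORL replicates 1 and 2, against 20760 and 20216 peaks by MeRIP replicates 1 and 2. Synthetase genes held 40 and 34 of the m6A-ORL peaks, against 32 and 32 of the MeRIP peaks. Median peak width over each whole list was 142 and 149 nt by m6A-ORL, against 211 and 211 nt by MeRIP. The files give no read depth. Precision is therefore limited by how many peaks there are, and a gene without a peak is one in which none was listed. The level of each mRNA was not measured here, and its part in these calls was not tested. The labels do not tell whether replicates were grown separately, and the p-values thus describe only how far these libraries spread, which may be technical. The 4 HEK-293T markers fixed as a check of the cell line (IRS4, PAX2, LHX1 and NEFM) had a peak in 1 and 2 cases by m6A-ORL, against 4 and 4 by MeRIP. Of 10 markers of other cell types, only the collagens COL1A1 and COL3A1 had a peak in any list, against 49.7% of all protein-coding genes. COL1A1 had 8 and 1 peaks by m6A-ORL, against 0 and 1 by MeRIP. COL3A1 had 2 and 0, against 0 and 0, so most collagen peaks were in m6A-ORL replicate 1. By list, 27.2% and 19.8% of all protein-coding genes had a peak by m6A-ORL, against 39.1% and 38.4% by MeRIP.

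The sequences that carry the 5′ end result below are the first 30 bases from a RefSeq transcript start that lies inside an m6A-ORL peak (GRCh38.p14, RefSeq, 5′ to 3′ on the gene's strand). Capitals mark AAC or GAC, read on the transcript strand alone, and none are present where a start has neither. The 6 cytosolic examples are those whose start lay in peaks of at least 2 libraries, and YARS2 is the single mitochondrial gene with such a start.
AARS1, chr16:70289477-70289506, minus strand: acagctgcgcgtctgcgggaataggtgcag
FARSA, chr19:12933682-12933711, minus strand: acactggaaggagtcatggcggatggtcag
GARS1, chr7:30594878-30594907, plus strand: gcttccgtcgccaccctctctgGACagccc
HARS1, chr5:140691341-140691370, minus strand: atccttgctgaggctggggcAACcaccgca
TARS1, chr5:33440965-33440994, plus strand: gattgcatcagctggtccagccgaggccaa
YARS1, chr1:32817329-32817358, minus strand: agctgatgcAACctggctgGACtcgcgtga
YARS2, chr12:32755868-32755897, minus strand: attcccttcgtgccgctaccaagatggcgg
Of 11 synthetase starts that could be read this way, 5 (45.5%) held AAC or GAC in these 30 bases, against 47.8% of 22199 RefSeq windows of protein-coding genes. A match of letters is a description and not a modified site, and the peaks are wider than these stretches.

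In the full lists, which differ in length, the 2 methods found about as many synthetase genes as each other. The mix of cytosolic and mitochondrial ones differed. A peak was listed in 23 and 18 of the 35 genes by m6A-ORL replicates 1 and 2, against 21 and 19 by MeRIP replicates 1 and 2. The mean difference of 0.5 genes, m6A-ORL minus MeRIP, was smaller than the spread between replicates (exact permutation p = 1, two-sided, over 4 libraries). With lists cut to equal length by score, the genes numbered 19 and 18 by m6A-ORL, against 15 and 15 by MeRIP, a difference of 3.5. With the better-scored 50% of each list the difference was -3.5, so its sign depends on how the lists are cut. Over all protein-coding genes, the share with a peak was 27.2% and 19.8% by m6A-ORL, against 39.1% and 38.4% by MeRIP. The genes with a peak in any list numbered 29 of 35, against 49.7% of all protein-coding genes, and 17 of the 35 had one by both methods, against 26.6%.

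Cytosolic enzymes had peaks more often by m6A-ORL and mitochondrial enzymes by MeRIP. Cytosolic genes with a peak numbered 15 and 12 of 19 by m6A-ORL, against 8 and 7 by MeRIP. Mitochondrial genes with a peak numbered 8 and 6 of 16 by m6A-ORL, against 13 and 12 by MeRIP. Within each method the replicates lay on the same side. The share over all protein-coding genes was 27.2% and 19.8% by m6A-ORL, against 39.1% and 38.4% by MeRIP. It too was higher by MeRIP, so that direction is not particular to the mitochondrial enzymes, whereas the cytosolic shares went the other way. Both classes were above it by m6A-ORL. By MeRIP the mitochondrial shares were above it and the cytosolic ones (42.1% and 36.8%) were near it. As shares, cytosolic genes averaged 71.1 ± 11.2% by m6A-ORL and 39.5 ± 3.72% by MeRIP, whereas mitochondrial genes averaged 43.75 ± 8.84% by m6A-ORL and 78.1 ± 4.42% by MeRIP (SD, n = 2 libraries each).

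**Figure D1:**
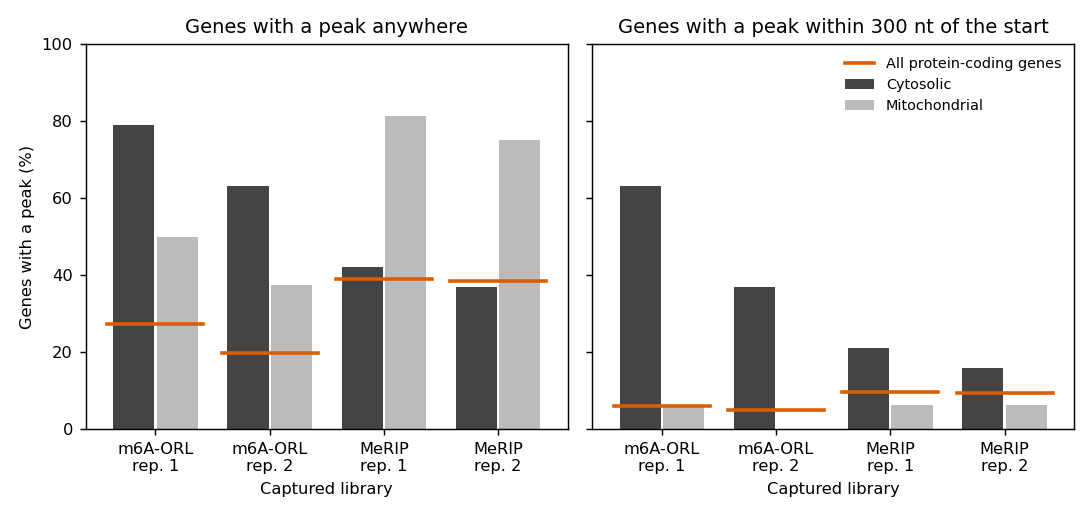
Share of genes with a peak (%) in each library for the 19 cytosolic and 16 mitochondrial synthetase genes. The cytosolic share is above the mitochondrial share in both m6A-ORL libraries (78.9% and 63.2%, against 50% and 37.5%) and below it in both MeRIP libraries (42.1% and 36.8%, against 81.25% and 75%).

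The cytosolic minus mitochondrial difference was 28.9 and 25.7 percentage points by m6A-ORL, against -39.1 and -38.2 points by MeRIP. The 2 methods differed in it by 66.0 points, with every m6A-ORL value positive and every MeRIP value negative (exact permutation p = 0.33, two-sided). That p is the smallest that 2 against 2 libraries can give, so no comparison of methods here can pass 0.05. Over the 4 libraries together the class difference averaged -5.67 points (exact sign-flip permutation p = 0.75, the smallest possible being 0.13), and that sign turned when the lists were cut to equal length (1.81 points). In peaks per gene, cytosolic genes averaged 1.32 ± 0.0744 by m6A-ORL and 0.605 ± 0.0372 by MeRIP, and mitochondrial genes 0.75 ± 0.354 by m6A-ORL and 1.28 ± 0.0442 by MeRIP (SD, n = 2 each). The median gene span was 32831 nt for cytosolic and 28403 nt for mitochondrial genes.

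Sorted by method, 8 cytosolic genes had peaks by both methods, 8 by m6A-ORL alone, 0 by MeRIP alone and 3 in no list. Among mitochondrial genes, 9 had peaks by both methods, 0 by m6A-ORL alone, 4 by MeRIP alone and 3 in no list. Over all protein-coding genes 8.41% had peaks by m6A-ORL alone and 14.7% by MeRIP alone. In both libraries of a method, 16 synthetase genes (11 cytosolic, 5 mitochondrial) had a peak by m6A-ORL, against 19 (7 cytosolic, 12 mitochondrial) by MeRIP. Over all protein-coding genes, 12% had a peak in both m6A-ORL lists and 36.2% in both MeRIP lists.

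**Figure D2:**
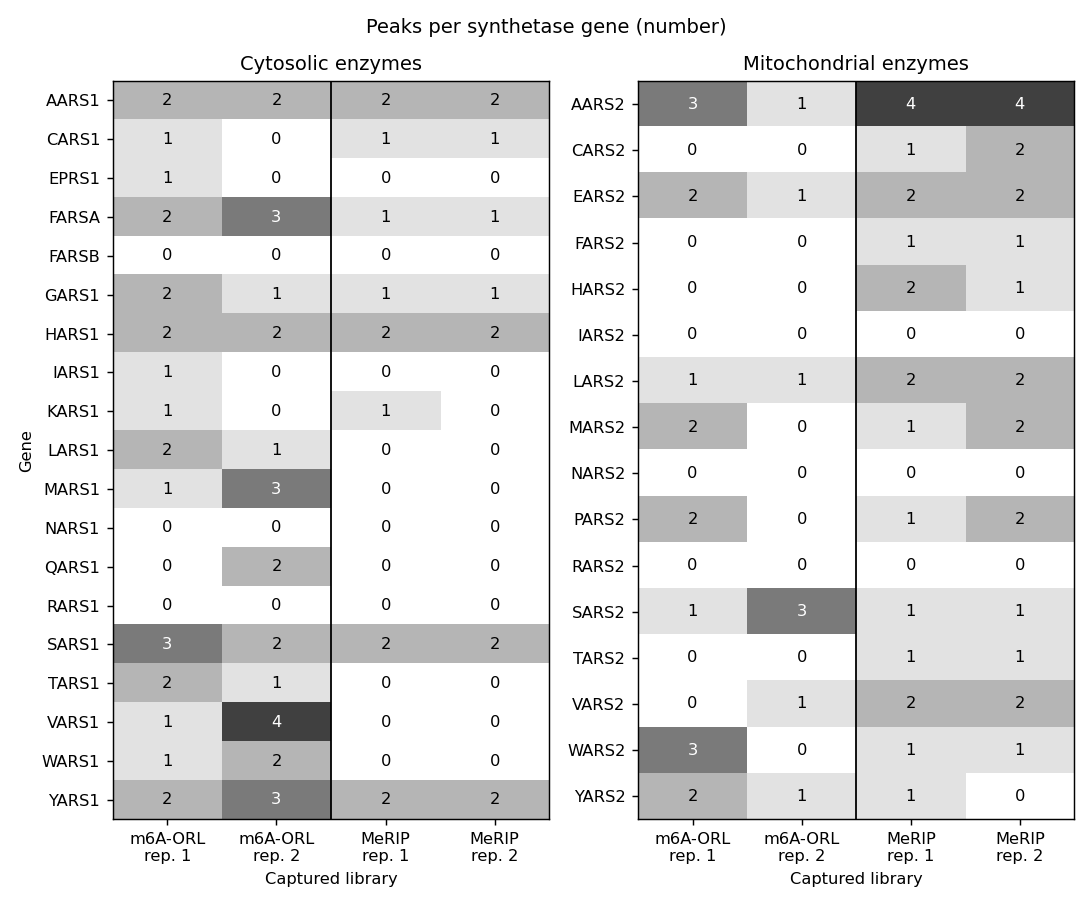
Number of peaks per synthetase gene (rows) in each library (columns), with cytosolic genes in the left panel and mitochondrial genes in the right panel. AARS1 and HARS1 have 2 peaks in every library, and 6 genes have none in any.

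The 6 cytosolic genes with a peak in all 4 libraries code for the alanine, phenylalanine (alpha subunit), glycine, histidine, serine and tyrosine enzymes. The share of all protein-coding genes with a peak in all 4 lists was not computed, so this count cannot be read against it. AARS1, the alanine enzyme, had 2 peaks in each library. Its 3′ site at chr16:70252295-70253286 (minus strand, hg38) was found in all 4 lists. Ranked within its own list by the authors' score (0% best), the best AARS1 peak stood at 4.51% and 14.1% by m6A-ORL, against 0.691% and 0.762% by MeRIP. The other site began at the gene start and had a further block several kb into the gene in m6A-ORL replicate 1 and both MeRIP lists, whereas m6A-ORL replicate 2 had its other peak between the ends at chr16:70259116-70261123.

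HARS1, the histidine enzyme, had a site at its 5′ end, chr5:140690937-140691417 (minus strand), in all 4 lists. Peaks of 3 libraries covered the RefSeq start and that of m6A-ORL replicate 1 began 13 nt inside it. The best HARS1 peak stood at 9.44% and 36.7% by m6A-ORL, against 4.48% and 5.07% by MeRIP. The 3′ site was shared by m6A-ORL replicate 1 and both MeRIP libraries, while the 3′ peak of m6A-ORL replicate 2 at chr5:140674794-140675165 overlapped none of them. HARS1 and the mitochondrial gene HARS2 are divergent neighbours whose RefSeq starts are separated by 84 bases. HARS1 peaks of m6A-ORL replicate 2 and MeRIP replicate 1 covered 47 of those bases, shown here in capitals on the HARS1 strand because they lie outside the annotated gene.
HARS1-HARS2 interval, chr5:140691371-140691454, minus strand, GRCh38.p14: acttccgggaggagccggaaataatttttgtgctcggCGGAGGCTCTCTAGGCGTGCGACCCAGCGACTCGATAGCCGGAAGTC
HARS2 itself had 0 and 0 peaks by m6A-ORL, against 2 and 1 by MeRIP, all near its 3′ end. Peaks of another gene ID on the same strand run over that 3′ end in both MeRIP lists, so the HARS2 counts are uncertain.

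YARS1, the tyrosine enzyme, was the only synthetase gene with 2 sites found in all 4 lists. They lay at its 3′ end, chr1:32775687-32775956, and at its 5′ end, chr1:32811624-32817464 (minus strand). Its best peak stood at 7.80% and 12.9% of its list by m6A-ORL, against 5.56% and 4.68% by MeRIP. SARS1, the serine enzyme, had 3 and 2 peaks by m6A-ORL, against 2 and 2 by MeRIP, with a site at chr1:109214007-109215082 (plus strand) in all 4 lists. Its best peak stood at 19.6% and 11.6% by m6A-ORL, against 6.69% and 5.85% by MeRIP. In that site the peak of m6A-ORL replicate 2 nearest the start met the peak of MeRIP replicate 2 by 1 nt, and a further m6A-ORL replicate 2 peak lay wholly inside the MeRIP peaks.

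GARS1, which gives the cytosolic and the mitochondrial glycine enzyme, had a 5′ site by m6A-ORL alone and a 3′ site by both methods. Both m6A-ORL lists had a peak near its start, ranked 97.4% and 3.63%, and neither MeRIP list did. The 3′ site at chr7:30633795-30634003 (plus strand) was found in m6A-ORL replicate 1 and both MeRIP lists, ranked 52.6% by m6A-ORL, against 18.96% and 24.9% by MeRIP. At the start, a peak of an unnamed gene ID on the opposite strand covered almost the same bases in m6A-ORL replicate 2. The strand setting of the counting is not stated in the sources used here, so the strand of this signal cannot be told.

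FARSA, the alpha subunit of the phenylalanine enzyme, had 2 and 3 peaks by m6A-ORL, against 1 and 1 by MeRIP. The best of them stood at 67.2% and 2.28% by m6A-ORL, against 64.0% and 45.5% by MeRIP. Its 5′ peak was shared by both m6A-ORL libraries and met the peak of MeRIP replicate 1, which lay 59 nt upstream of the RefSeq start. The single peak of MeRIP replicate 2 lay inside the gene at chr19:12930270-12930389 (minus strand) and overlapped a peak of m6A-ORL replicate 2. The 118 bases of this overlap that a RefSeq window covers are shown because they are the synthetase stretch inside a gene where both methods met and sequence was at hand.
FARSA, chr19:12930272-12930389, minus strand, GRCh38.p14: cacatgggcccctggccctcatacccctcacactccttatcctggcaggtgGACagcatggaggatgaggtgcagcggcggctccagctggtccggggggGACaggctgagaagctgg
It held 2 GAC, each within GGAC. For comparison, the first stretch of this length was read in each RefSeq window of protein-coding genes, which lies upstream of the start. Of these stretches, 73.3% held 2 or more AAC or GAC and 9.50% held 2 or more GGAC. The FARSA stretch lies inside the gene, so these shares are not a matched background for it. FARSB, which codes for the partner subunit, had no peak in any list.

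**Figure D3:**
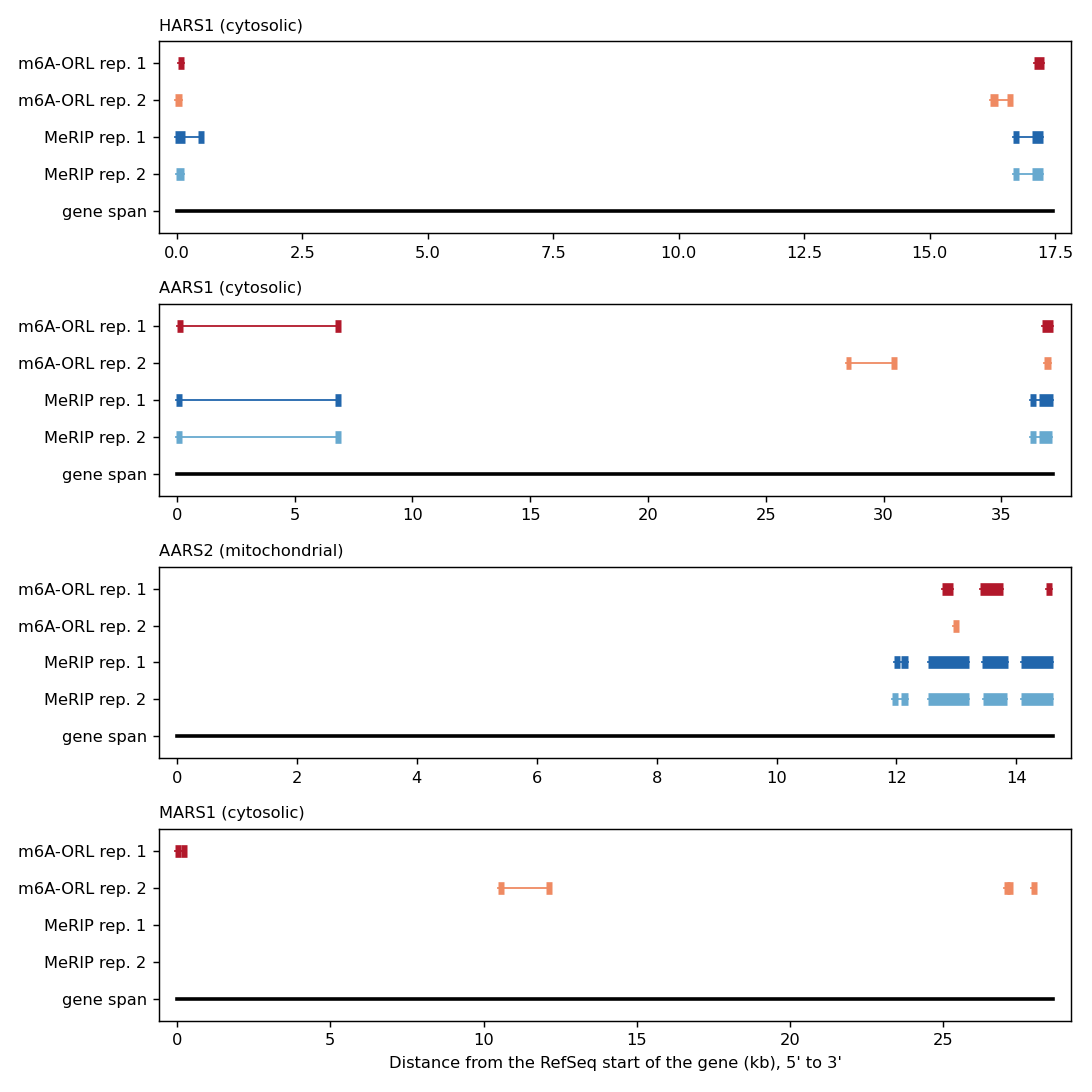
Peaks of HARS1, AARS1, AARS2 and MARS1 by distance from the RefSeq start (kb), 1 row per library above the gene span. Thick bars are the blocks of a peak (drawn at a minimum width) and thin lines join blocks of 1 peak. HARS1 has a peak at its 5′ end in all 4 libraries, the AARS2 peaks lie towards its 3′ end, and MARS1 has peaks by m6A-ORL alone.

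The 8 cytosolic genes found by m6A-ORL alone were EPRS1, IARS1, LARS1, MARS1, QARS1, TARS1, VARS1 and WARS1. MARS1, the methionine enzyme, had 1 and 3 peaks by m6A-ORL, against 0 and 0 by MeRIP. Its peak in replicate 1 lay at the start (chr12:57488004-57488256, plus strand) and its 3 peaks in replicate 2 lay further in, so no position was shared. TARS1, the threonine enzyme, had 2 and 1 peaks, and its 5′ peak had the same coordinates, chr5:33440906-33441115 (plus strand), in both m6A-ORL lists. VARS1, the valine enzyme, had 1 and 4 peaks by m6A-ORL, the shared one at chr6:31795046-31795286 (minus strand) ranked 50.4% and 12.1%. WARS1, the tryptophan enzyme, had 1 and 2 peaks at different places, and LARS1, the leucine enzyme, had 2 and 1 peaks at different places. EPRS1 and IARS1, for glutamate with proline and for isoleucine, had 1 peak each in replicate 1 and none in replicate 2. QARS1, for glutamine, had 2 peaks in replicate 2 and none in replicate 1.

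Of the 7 listed enzymes of the multi-synthetase complex, 5 (EPRS1, IARS1, LARS1, MARS1 and QARS1) had peaks by m6A-ORL alone. The same held for 8 of all 19 cytosolic genes and for 8.41% of all protein-coding genes. Within the complex, KARS1 had peaks by both methods and RARS1 in no list. KARS1, which gives both lysine enzymes, had 1 and 0 peaks by m6A-ORL, against 1 and 0 by MeRIP. Its MeRIP peak lay 918 nt upstream of the RefSeq start and ranked 94.1%, and it did not meet the m6A-ORL peak. CARS1, for cysteine, also had peaks at different places by method. The 6 synthetase genes with no peak in any list were FARSB, NARS1 and RARS1 among cytosolic genes and IARS2, NARS2 and RARS2 among mitochondrial ones, so both the asparagine and both the arginine enzymes were without one.

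The 4 mitochondrial genes with a peak in all 4 libraries were AARS2, EARS2, LARS2 and SARS2, a count that likewise has no share over all genes beside it. AARS2, the mitochondrial alanine enzyme, had 3 and 1 peaks by m6A-ORL, against 4 and 4 by MeRIP. Its site at chr6:44300139-44300827 (minus strand) was in all 4 lists, and its best peak stood at 32.5% and 50.9% by m6A-ORL, against 2.76% and 3.23% by MeRIP. EARS2, the glutamate enzyme, had 2 and 1 peaks by m6A-ORL, against 2 and 2 by MeRIP, with its site in all 4 lists at chr16:23523394-23523784 (minus strand). The best EARS2 peak stood at 56.8% and 88.5% by m6A-ORL, against 10.8% and 12.05% by MeRIP. LARS2, the leucine enzyme, had 1 and 1 peaks by m6A-ORL, against 2 and 2 by MeRIP, with its site in all 4 lists at chr3:45547414-45548253 (plus strand). The best LARS2 peak stood at 81.8% and 23.9% by m6A-ORL, against 5.68% and 5.91% by MeRIP. These 3 mitochondrial sites all lay towards the 3′ end of their genes. In EARS2 and LARS2 the m6A-ORL peaks did not overlap each other and were joined only through the MeRIP peaks, and in AARS2 they met by 1 nt.

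SARS2, the serine enzyme, had 1 and 3 peaks by m6A-ORL, against 1 and 1 by MeRIP. Its site at chr19:38915296-38915475 (minus strand) was in m6A-ORL replicate 2 and both MeRIP lists, and the peak of m6A-ORL replicate 1 lay beside it. The best SARS2 peak stood at 52.3% and 25.4% by m6A-ORL, against 61.0% and 76.8% by MeRIP. The SARS2 span holds a second gene ID on the same strand, so its counts are uncertain. MARS2 and PARS2, for methionine and proline, each had 2 and 0 peaks by m6A-ORL, against 1 and 2 by MeRIP. Their peaks joined into 1 site per gene, chr2:197706086-197707281 (plus strand) in MARS2 and chr1:54757613-54758865 (minus strand) in PARS2. The best MARS2 peak stood at 7.34% in m6A-ORL replicate 1, against 8.37% and 6.98% by MeRIP. The best PARS2 peak stood at 29.3% in m6A-ORL replicate 1, against 7.30% and 9.31% by MeRIP. WARS2, for tryptophan, had 3 and 0 peaks by m6A-ORL, against 1 and 1 by MeRIP, and YARS2, for tyrosine, had 2 and 1, against 1 and 0. VARS2, for valine, had 0 and 1 peaks by m6A-ORL, against 2 and 2 by MeRIP, at places that did not meet.

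CARS2, FARS2, HARS2 and TARS2 had peaks by MeRIP alone. TARS2, the mitochondrial threonine enzyme, had 1 and 1 peaks at the same coordinates in both MeRIP lists (chr1:150506920-150507399, plus strand), ranked 3.17% and 3.35%. It thus stood among the best-scored MeRIP peaks, while neither m6A-ORL list had a peak in the gene. CARS2 had 1 and 2 MeRIP peaks ranked no better than 75.2% and 84.0%, and FARS2 had 1 and 1 ranked 48.8% and 51.0%.

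Peaks at the start of the gene were mostly cytosolic. A 5′ end peak was one with a base within 300 nt of the RefSeq start, a measure added after the positions had been seen. Cytosolic genes with one numbered 12 and 7 of 19 by m6A-ORL, against 4 and 3 by MeRIP. Mitochondrial genes with one numbered 1 and 0 of 16 by m6A-ORL, against 1 and 1 by MeRIP. The cytosolic minus mitochondrial difference was positive in all 4 libraries, at 56.9 and 36.8 points by m6A-ORL and 14.8 and 9.54 points by MeRIP (mean 29.5 points, exact sign-flip permutation p = 0.13, the smallest that 4 libraries can give). With lists cut to equal length by score, both MeRIP values turned negative, at -6.25 and -0.987 points. Among all protein-coding genes, 6.06% and 4.91% had such a peak by m6A-ORL, against 9.55% and 9.40% by MeRIP. Counted only among genes with a peak in the list, the shares were 22.3% and 24.8% by m6A-ORL, against 24.4% and 24.5% by MeRIP.

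By m6A-ORL, 14 cytosolic genes had a 5′ end peak in at least 1 list: AARS1, EPRS1, FARSA, GARS1, HARS1, IARS1, KARS1, LARS1, MARS1, SARS1, TARS1, VARS1, WARS1 and YARS1. By MeRIP they were AARS1, FARSA, HARS1 and YARS1, all of which are among the 14. Of the 14, only FARSA, GARS1, HARS1, TARS1 and YARS1 had a 5′ end peak in both m6A-ORL lists. SARS1 and VARS1 had it in replicate 2 alone, and the others in replicate 1 alone, the library labelled total RNA. The count of 14 has no share over all genes to be read against. The mitochondrial genes with a 5′ end peak were YARS2 by m6A-ORL and VARS2 by MeRIP. The VARS2 peak lay 102 nt upstream of the RefSeq start in both MeRIP lists. The YARS2 peak was mirrored by a peak of an unnamed gene ID on the opposite strand of the same library.

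**Figure D4:**
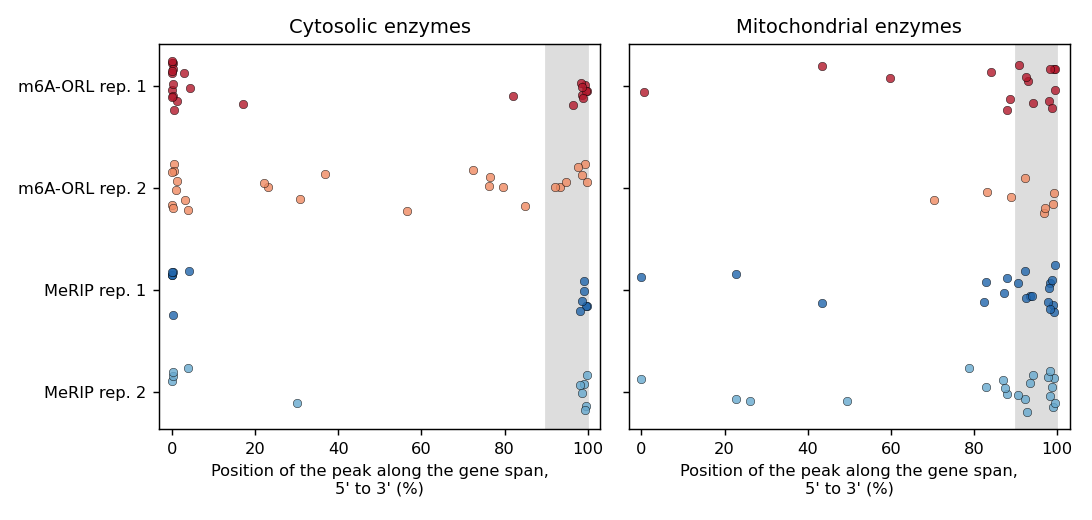
Position of every synthetase peak along its gene, from the RefSeq start to the RefSeq end of the genomic span, by library and class. Cytosolic peaks by m6A-ORL gather at both ends, and mitochondrial peaks gather towards the 3′ end in every library.

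Towards the 3′ end, the mitochondrial share was the higher one in all 4 libraries, by little in MeRIP replicate 2. The midpoint lay in the last 10% of the genomic span, introns included, for 45.0% and 35.3% of synthetase peaks by m6A-ORL, against 59.4% and 56.25% by MeRIP. The same shares over all named protein-coding genes were 34.8% and 28.4% by m6A-ORL, against 37.5% and 37.4% by MeRIP. For cytosolic peaks the share was 33.3% and 26.9% by m6A-ORL and 50% and 54.5% by MeRIP. For mitochondrial peaks it was 62.5% and 62.5% by m6A-ORL and 65% and 57.1% by MeRIP. Exons and UTRs were not annotated here, so the span stands in for the transcript.

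Joining overlapping peaks gave 70 sites in 29 genes, 41 in cytosolic and 29 in mitochondrial genes. Both methods met at 22 sites, 11 in each class. Of these, 5 cytosolic and 0 mitochondrial ones had a 5′ end peak of at least 1 method, and 5 cytosolic and 8 mitochondrial ones lay in the last 10%. The SARS1 site is among the 5 through m6A-ORL alone, since its MeRIP peaks began 741 and 771 nt from the start. Sites seen by m6A-ORL alone numbered 28 in cytosolic and 8 in mitochondrial genes. Sites seen by MeRIP alone numbered 2 in cytosolic and 10 in mitochondrial genes. Sites were not joined in other genes, so these counts have no share over all genes to be read against. Of the 41 cytosolic sites 26 were in 1 library, and of the 29 mitochondrial sites 10. Across lists, 36 sites were in 1 library, 14 in 2, 12 in 3 and 8 in all 4.

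Overlap between methods was counted from each side, and the intervals below are exact 95% intervals of the synthetase shares, for counting error only. Of m6A-ORL peaks in synthetase genes, 57.5% and 35.3% overlapped a MeRIP peak of either list, against 54.7% and 47.9% of peaks outside these genes (intervals 40.9 to 73.0% and 19.7 to 53.5%). Of MeRIP peaks in synthetase genes, 65.6% and 65.6% overlapped an m6A-ORL peak, against 33.5% and 32.9% outside (interval 46.8 to 81.4% in each list). By class the order depended on the side counted from. Of cytosolic peaks, 45.8% (11 of 24) and 30.8% (8 of 26) by m6A-ORL met a MeRIP peak. By MeRIP, 83.3% (10 of 12) and 90.9% (10 of 11) of them met an m6A-ORL peak. For mitochondrial peaks the shares were 75% (12 of 16) and 50% (4 of 8) by m6A-ORL. By MeRIP they were 55% (11 of 20) and 52.4% (11 of 21). These counts are small, and the exact 95% intervals of the classes overlapped in every list. The other list of the same method met 25.0% and 29.4% of m6A-ORL synthetase peaks, against 13.8% and 19.6% of m6A-ORL peaks outside these genes. For MeRIP it met 87.5% and 93.75% of synthetase peaks, near the 83.6% and 86.0% outside. The labels list 1 input for both MeRIP libraries and 1 for each m6A-ORL library, and the part of a common input in this replicate overlap was not tested.

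Within each list synthetase peaks stood at a median rank of 51.3% and 37.4% by m6A-ORL, against 18.9% and 17.9% by MeRIP. All named protein-coding peaks had a median rank of 51.2% and 49.4% by m6A-ORL, against 48.1% and 48.3% by MeRIP. Within MeRIP the medians were 15.8% and 15.8% for cytosolic and 21.3% and 19.1% for mitochondrial peaks. Ranks from lists of different length cannot be read as a change of signal between methods.

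**Figure D5:**
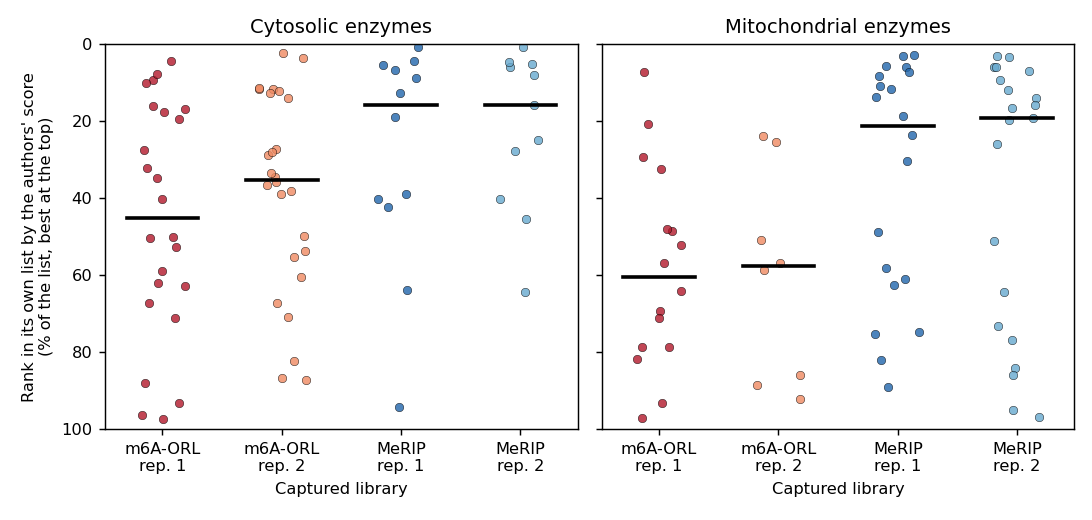
Rank of each synthetase peak within its own list by the authors' score (0% best, 100% worst), by library and class. MeRIP synthetase peaks have medians of 18.9% and 17.9%, and m6A-ORL ones 51.3% and 37.4%.

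Other genes around tRNA charging were read in the same way. Of 14 partners of the synthetases and tRNA-charging factors, 5 and 1 (35.7% and 7.14%) had a peak by m6A-ORL, against 4 and 3 (28.6% and 21.4%) by MeRIP. Of all protein-coding genes, 27.2% and 19.8% had one by m6A-ORL, against 39.1% and 38.4% by MeRIP, so the partners were above this share in m6A-ORL replicate 1 and below it in the other 3 lists. AIMP2, a scaffold of the multi-synthetase complex, had 0 and 1 peaks by m6A-ORL, against 1 and 1 by MeRIP. EEF1E1, another complex component, had a 5′ end peak in m6A-ORL replicate 1 alone. Of 9 genes of the amino acid response, which senses uncharged tRNA, 6 and 6 (66.7% each) had a peak by m6A-ORL, against 8 and 8 (88.9% each) by MeRIP, above the share of all protein-coding genes in each list. ATF4, its transcription factor, had 2 and 2 peaks by m6A-ORL, against 4 and 3 by MeRIP, and ASNS, asparagine synthetase and an ATF4 target, had 1 and 0, against 1 and 1. DDIT3 was the single gene of the 9 with no peak in any list.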

How the data were processed

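m6A was mapped in HEK-293T RNA by m6A-ORL and MeRIP, with 2 captured libraries per method. The authors deposited 1 peak list per library, with 12 BED columns per the file headers, giving position, strand, blocks, an Ensembl gene ID and a score. From its range (0 to 0.0081), the score the authors deposited was read as some p-value or q-value, and it only ranked peaks within a list. Per the submitters' processing notes, the tools were Trim Galore, STAR and HOMER and the build hg38, with no version. Which caller, input and threshold gave the peaks, and whether counting used strand, is not given in the sources read here. The labels call m6A-ORL replicate 1 total RNA, while the protocol common to all samples has an oligo(dT) step.

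Exact duplicate lines were removed. Each Ensembl ID took the name of the RefSeq gene (GRCh38.p14) whose span held at least 50% of its peak bases on the same strand, with 90% preferred and 1 ID per gene. Of 13566 IDs, 12844 lay in a span and 11750 genes were given an ID, 29 of them synthetases. A synthetase with no ID had no peak by this rule, which the alternative by span and strand also tested. Shares of all protein-coding genes include genes that HEK-293T cells may not express.

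The library was the replicate. Methods were compared by exact two-sided permutation of the method label, and classes by exact sign flips over the 4 libraries. Intervals are exact Clopper-Pearson at 95%. Members and lists were chosen with earlier results of these data known. All 35 members are named. Coordinates and ranks are given for the 10 with a peak in all 4 lists and for MARS2 and PARS2, the next by libraries and rank with overlapping peaks of both methods. Coordinates or ranks of other members were added after their values were seen. Python 3.11.15, pandas 2.3.3, numpy 2.4.6 and SciPy 1.17.1 were used, and the permutation code was tested on simulated data.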

Additional observations from a re-analysis of the deposited data

Results flagged for a closer look

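The cytosolic minus mitochondrial share of genes with a peak differed between the methods by 66.0 percentage points, m6A-ORL minus MeRIP. Both m6A-ORL libraries had a higher cytosolic share and both MeRIP libraries a higher mitochondrial share. The peaks per gene behaved likewise, with a difference of 1.24 peaks per gene between the methods in the cytosolic minus mitochondrial value. The exact permutation test of each gives p = 0.33, the smallest that 2 against 2 libraries allow. The RNA type of m6A-ORL replicate 1 cannot be told apart from its replicate number, and its part was not tested. The class difference was 28.9 points in m6A-ORL replicate 1, labelled total RNA, and 25.7 points in m6A-ORL replicate 2, labelled polyA RNA.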

How the results depend on the processing

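The 66.0-point difference between the methods in the class difference kept its sign under every alternative tried: 71.2 by gene span, 56.4 with the better-scored 50% of each list, 53.0 with lists of equal length, 69.7 without GARS1 and KARS1, and 64.3 to 67.6 without each library. The class difference over all 4 libraries (-5.67 points) reversed to 3.04 with the better-scored 50% and 1.81 with lists of equal length, and was -17.2 to 5.48 without each library, positive when either MeRIP library was left out. Peaks per gene (-0.055, cytosolic minus mitochondrial) reversed to 0.140 and 0.118 under those same settings, and were -0.363 to 0.171 without each library, positive for those same MeRIP libraries. Genes with a peak (0.5, m6A-ORL minus MeRIP) reversed to -3.5 with the better-scored 50% and were 3.5 with lists of equal length. They were -2 to 3 without each library, negative without m6A-ORL replicate 1 (-2) or MeRIP replicate 2 (-0.5). Peaks in member genes (5) reversed to -3.5 with the better-scored 50%, were 11.5 with lists of equal length and 2 to 8 without each library. The cause of these reversals was not tested. The 5′ end class difference (29.5 points) was 16.4 with the better-scored 50%, 16.4 with equal lengths, 26.9 at 150 nt, 30.8 at 500 nt and 20.4 to 36.2 without each library. With equal lengths it was -6.25 and -0.987 points in the MeRIP lists. The m6A-ORL share overlapped by MeRIP (46.4%) was 38.2% to 51.7% over the other settings and 35.3% to 57.5% without each library. The share in the last 10% of the span was 40.1% by m6A-ORL and 57.8% by MeRIP. It was 49.6% and 70.3% for the last 20%, 30.9% and 60.9% with the better-scored 50%, and 35.3% to 45% by m6A-ORL and 56.25% to 59.4% by MeRIP without each library. The replicate 1 minus replicate 2 differences in peaks per gene ID were uncorrelated between the methods (correlation 0.00121). The m6A-ORL replicates also differ in RNA type by label, so this cannot tell whether replicate numbers pair the libraries. Treating them as pairs cannot alter a mean difference, so the 66.0 points stayed as they were (exact sign-flip permutation p = 0.5 with 2 pairs). No call could change, since no test here can pass 0.05.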

Other observations

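In synthetase genes nearly all peaks made of more than 1 block were cytosolic. Of cytosolic peaks, 29.2% and 46.2% by m6A-ORL and 41.7% and 36.4% by MeRIP were of this kind, and mitochondrial genes had 0 and 1 such peaks by m6A-ORL and 1 and 1 by MeRIP. Over all named protein-coding genes the shares were 10.1% and 27.9% by m6A-ORL, against 16.8% and 16.2% by MeRIP. The gap between blocks was short in some, 8 nt in a WARS1 peak and 12 nt in a MARS1 peak of m6A-ORL replicate 1, and exons were not annotated here, so a block boundary is not taken as a splice junction.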
